A study of Mus musculus with 15 samples.

Results

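The T cell receptor and intraepithelial lymphocyte genes described here are 7 genes, Cd3d, Cd3e, Cd3g, Cd8a, Itgae, Zap70 and Lck, of the 25329 genes listed in an RNA sequencing table of whole mouse ileum. They were taken by name, and all 7 were found and passed the filter on low values, among 11332 genes tested. The table holds 15 libraries, 5 per genotype. DHO mice combined epithelial TAK1 deletion in the intestine (TAK1 IEC-KO) with Ripk1 D138N on both alleles, a change that leaves RIPK1 without kinase activity. HO mice had the same epithelial TAK1 loss with no Ripk1 change named, and WT mice carried floxed Tak1 (Tak1f/f). All groups are described as given 3 daily doses of 80 mg/kg tamoxifen, and ileum was taken 3 days post induction. The question of the series was what RIPK1 kinase activity contributes to ileitis in mice without epithelial TAK1. No group carried the Ripk1 allele with intact epithelial TAK1, and the labels do not confine that allele to the epithelium, so in DHO against WT the 2 changes of genotype cannot be told apart. The labels name neither the Cre driver nor the animals' age.

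T cells recognise antigen through a receptor whose variable chains have no signalling tail of their own. CD3 chains carry the signal: LCK, brought in by the co-receptors CD4 or CD8, phosphorylates the CD3 tails, and ZAP70 docks there and passes the signal on. Intraepithelial lymphocytes are T cells lodged between the epithelial cells of the gut, many of them CD8-positive, and integrin alpha E (CD103, from Itgae), paired with integrin beta 7, binds E-cadherin on the epithelium.

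All 7 genes were lowest in DHO ileum. In each of them the 5 DHO libraries lay below the 5 WT libraries without overlap, and the DHO means were 39.6% (Cd3e and Cd8a) to 54.1% (Lck) of the WT means. Lower, non-overlapping values of that kind were found for 1.96% of all genes tested. Whole ileum holds many cell types, so fewer cells of a type and less RNA per cell cannot be told apart in these values.

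Depth, recovered from the steps between values, was 38724783 to 40590053 reads per library. Gene levels are in FPKM, reads per gene scaled to gene length and library depth. Levels of 10 epithelial genes, among them Epcam and Vil1, summed to 10716 to 12669 FPKM in DHO, 9610 to 11941 in HO and 12365 to 13832 in WT. They did not move alike. In HO against WT limma called 4 lower and 1 higher (adjusted p under 0.05), beside 42.9% and 12.4% of all genes. Krt19 was at 255 to 983 FPKM in HO, against 1317 to 1647 in WT, and Cdh17 at 663 to 785, against 496 to 564. In DHO against HO 5 were called higher and 3 lower, beside 42.8% and 13.4%, and none in DHO against WT. Libraries HO 2, HO 4 and DHO 1 stood apart by B cell transcripts: the B cell antigen gene Ms4a1 was at 8.80, 15.5 and 7.04 FPKM there and at 0.286 or less elsewhere. HO 1, DHO 3 and DHO 4 held 27.3, 19.04 and 18.04 FPKM of Gata4, a transcription factor of the proximal small intestine, against 0.529 or less in the other libraries. These 3 were not alike in the ileal gene Fabp6. It was at 0.0491 FPKM in HO 1, but at 8871 in DHO 3, 9781 in DHO 4 and 1356 to 12973 in the other libraries. Hoxb9, another position marker, was at 0, 0.442 and 0.397 FPKM in HO 1, DHO 3 and DHO 4, against 1.91 to 17.8 elsewhere. Map3k7, which encodes TAK1, averaged 9.23 ± 0.71 FPKM in DHO, 8.66 ± 1.04 in HO and 10.4 ± 0.80 in WT (SD, n = 5 each).

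The CD3 chains are encoded side by side on chromosome 9. On GRCm38 (mm10), Cd3g (ENSMUSG00000002033.14) lies at chr9:44969572-44980431 on the minus strand, Cd3d (ENSMUSG00000032094.8) at chr9:44981786-44987339 on the plus strand, and Cd3e (ENSMUSG00000032093.7) at chr9:44998740-45009627 on the minus strand. The whole cluster spans 40056 bases, and the annotated starts of Cd3g and Cd3d, which run in opposite directions, are 1355 bases apart. The 250 bases before each start are shown because the 3 genes sit together and were low in the same libraries. They are given 5′ to 3′ on the gene's strand from RefSeq (GRCm38.p6). Capitals mark matches, on either strand, to AGGAAG (ETS factors), TGTGGT (RUNX factors), CACCTG (E proteins) and CTTTGA (TCF/LEF factors); no 2 matches overlap.
Cd3g, chr9:44980432-44980681, minus strand: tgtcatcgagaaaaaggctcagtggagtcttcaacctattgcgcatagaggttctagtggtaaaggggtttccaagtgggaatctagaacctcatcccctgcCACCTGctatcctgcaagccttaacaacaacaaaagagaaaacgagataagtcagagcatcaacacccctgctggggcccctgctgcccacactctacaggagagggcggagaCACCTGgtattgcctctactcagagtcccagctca
Cd3d, chr9:44981536-44981785, plus strand: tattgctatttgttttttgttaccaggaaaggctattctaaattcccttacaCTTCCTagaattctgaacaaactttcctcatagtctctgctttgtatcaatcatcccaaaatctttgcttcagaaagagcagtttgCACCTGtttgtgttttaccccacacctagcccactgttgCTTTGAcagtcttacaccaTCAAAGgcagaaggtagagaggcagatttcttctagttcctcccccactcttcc
Cd3e, chr9:45009612-45009861, minus strand: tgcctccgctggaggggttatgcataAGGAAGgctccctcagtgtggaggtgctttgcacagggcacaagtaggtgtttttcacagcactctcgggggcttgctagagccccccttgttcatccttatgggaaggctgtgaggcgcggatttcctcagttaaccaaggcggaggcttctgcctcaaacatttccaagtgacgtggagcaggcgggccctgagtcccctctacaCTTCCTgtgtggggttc
The Cd3g window held 2 E protein matches, the Cd3d window 1 ETS, 1 E protein and 2 TCF/LEF matches, and the Cd3e window 2 ETS matches. Of 32851 promoter windows of that length, 29.5% held the ETS letters, 14.0% the RUNX letters, 17.2% the E protein letters and 13.8% the TCF/LEF letters. The motifs were chosen with the sequences in view, and a match is a description of the letters, not of a bound site.

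Cd3e, the chain that pairs with both other CD3 chains, was at 1.76, 1.44, 1.82, 1.79 and 1.74 FPKM in DHO 1 to 5, at 3.02, 2.60, 2.27, 4.93 and 2.44 in HO 1 to 5, and at 5.00, 4.07, 4.59, 3.80 and 4.12 in WT 1 to 5. Every DHO library was below every HO library as well as every WT library, and HO overlapped WT only through HO 4. These levels rest on 88 to 111 reads in DHO, 140 to 296 in HO and 230 to 296 in WT.

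Cd3g, the gamma chain gene, was the most expressed of the 7 per length, with 6.38, 5.40, 7.68, 8.00 and 6.38 FPKM in DHO, 9.89, 9.52, 10.1, 15.9 and 7.12 in HO, and 16.8, 16.2, 13.9, 12.1 and 17.5 in WT. DHO 3 and DHO 4 were above HO 5, and 1 HO library (HO 4) reached the WT range. Cd3d, the delta chain gene, was at 2.10, 1.90, 1.50, 1.95 and 1.13 FPKM in DHO, at 2.65, 2.32, 1.40, 5.83 and 1.92 in HO, and at 4.07, 4.29, 3.83, 2.61 and 3.24 in WT. HO 4 held the highest Cd3d value of all 15 libraries, while HO 3 and HO 5 lay within the DHO range.

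Among DHO libraries the kinase genes had the largest coefficients of variation of the 7, 34.9% for Lck and 33.4% for Zap70, while the largest was that of Cd3d in HO (61.7%) and that of Cd8a in WT (22.5%). Lck (ENSMUSG00000000409.14, chr4:129548344-129573641, minus strand) was at 4.14, 2.44, 2.73, 3.04 and 1.48 FPKM in DHO, at 4.36, 3.43, 3.08, 7.87 and 2.98 in HO, and at 5.74, 5.53, 5.09, 4.67 and 4.56 in WT. DHO 1, a library with B cell transcripts, was the highest of the DHO libraries and came close to the lowest WT library. Zap70 (ENSMUSG00000026117.10, chr1:36761798-36782818, plus strand) had the lowest level, 1.07, 0.680, 0.758, 0.476 and 0.532 FPKM in DHO, 1.36, 0.912, 0.974, 2.17 and 0.991 in HO, and 1.56, 1.82, 1.18, 1.29 and 1.64 in WT. DHO 1 was again highest in its group and HO 4 highest of all. Zap70 reached 1 FPKM in 1 DHO, 2 HO and 5 WT libraries, so its fold changes on the log2(FPKM + 1) scale are understated most. It passed the filter only with its WT libraries, the group where it was high.

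Cd8a (ENSMUSG00000053977.13, chr6:71373427-71379173, plus strand) encodes the CD8 alpha chain, which in the gut epithelium also forms homodimers. It was at 2.15, 1.89, 3.47, 3.36 and 2.49 FPKM in DHO, at 7.64, 4.48, 3.82, 6.15 and 4.45 in HO, and at 7.96, 8.40, 6.59, 4.58 and 6.20 in WT. DHO libraries were below all HO and all WT libraries, and the highest DHO values were those of DHO 3 and DHO 4, which held proximal transcripts. The highest HO value was that of HO 1, another library with proximal transcripts and the one with Fabp6 at 0.0491 FPKM.

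Itgae (ENSMUSG00000005947.11, chr11:73090583-73147446, plus strand) was at 1.48, 1.86, 1.76, 2.03 and 1.86 FPKM in DHO, at 2.35, 1.91, 2.48, 3.41 and 1.58 in HO, and at 3.88, 4.48, 4.06, 3.64 and 3.93 in WT. It was the only one of the 7 whose 5 HO libraries were all below the 5 WT libraries, and DHO overlapped HO. Gene models on the other strand overlap Itgae, Cd3e and Zap70, and the strand setting of the read counting is not given in the sources used here, so reads of those overlapping genes could enter these 3 values.

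**Figure D1:**
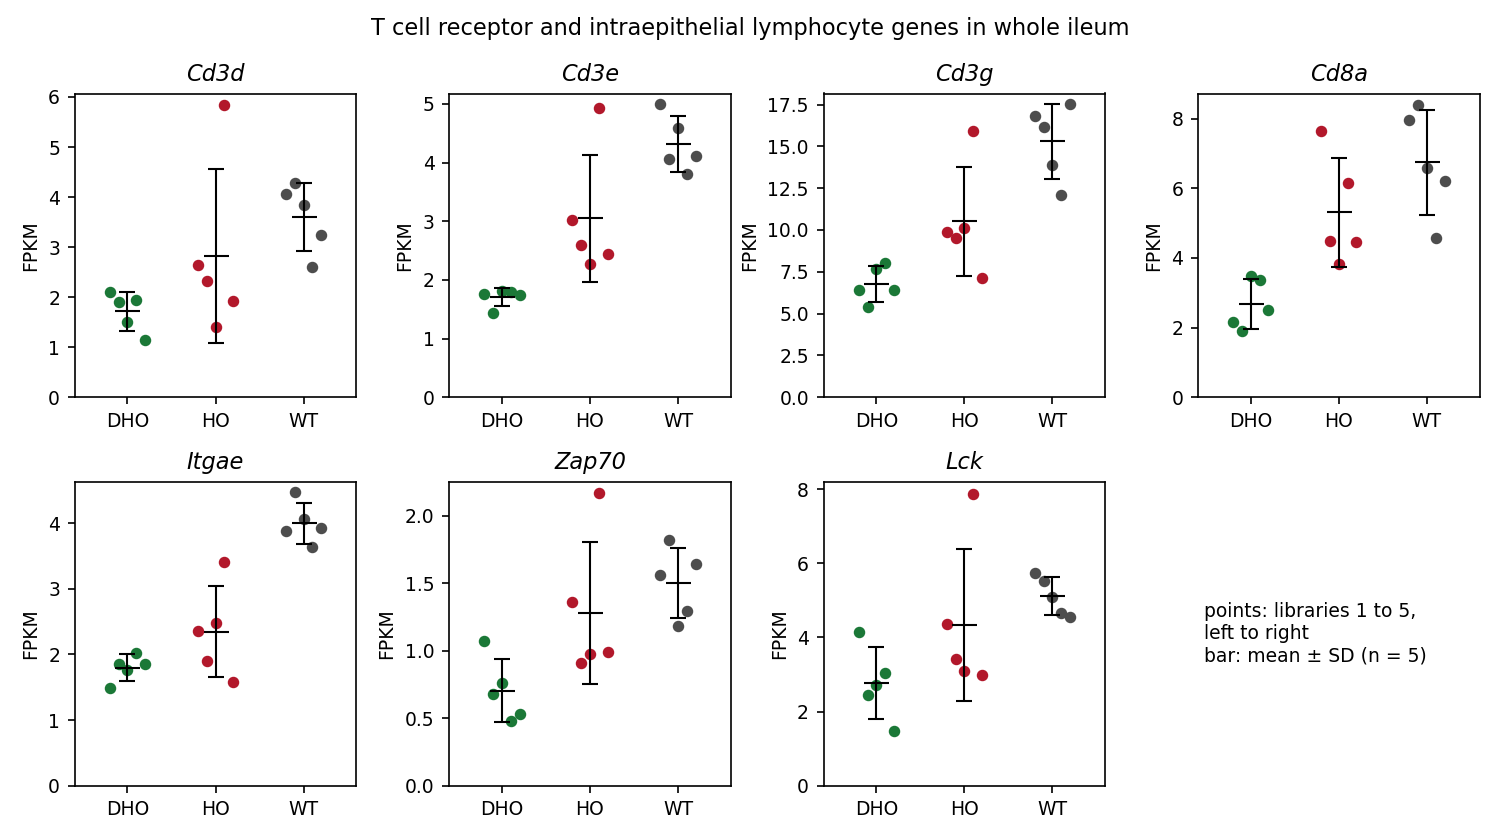
FPKM of each of the 7 genes (y axis, linear from 0) in DHO, HO and WT ileum; each point is 1 library, in replicate order from left to right, and the bar gives the mean ± SD of 5 libraries. DHO points lie below WT points for every gene, and the HO points spread between them with HO 4 high for Cd3d, Cd3e, Cd3g, Zap70 and Lck.

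DHO against WT asked which differences from WT were seen with both epithelial TAK1 and RIPK1 kinase activity lost. Cd8a averaged 2.67 ± 0.71 FPKM in DHO and 6.75 ± 1.52 in WT (SD, n = 5 each), a log2 change of -1.07 (SE 0.18, limma adjusted p = 0.0227). Cd3g averaged 6.77 ± 1.06 FPKM in DHO and 15.3 ± 2.25 in WT, a change of -1.07 (SE 0.17, adjusted p = 0.0104). Cd3e averaged 1.71 ± 0.16 FPKM in DHO and 4.32 ± 0.48 in WT, with a change of -0.97 (SE 0.14, adjusted p = 0.00736). Itgae averaged 1.80 ± 0.20 FPKM in DHO and 4.00 ± 0.31 in WT, with a change of -0.84 (SE 0.12, adjusted p = 0.00929). These 4 genes fell. Cd3d (-0.76, SE 0.22, adjusted p = 0.26), Lck (-0.73, SE 0.21, adjusted p = 0.259) and Zap70 (-0.56, SE 0.14, adjusted p = 0.162) did not pass the test over all genes, although their groups did not overlap.

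This comparison had few calls in the main fit, which shared 1 spread among the 3 genotypes. Of 11332 genes tested, 27 were called, 18 lower and 9 higher in DHO (719 had an unadjusted p under 0.05), so that 0.238% of all genes were called, 0.159% lower and 0.0794% higher, and 4 of those 18 were among the 7 genes. The median change of the 7 was -0.84, beside 0.0017 for all genes tested. The Cd8a call did not hold when WT 1 was left out (adjusted p = 0.102), nor with WT 2 (0.1), WT 3 (0.0696), WT 5 (0.056), DHO 1 (0.0788), DHO 2 (0.0591) or DHO 5 (0.0525) left out. Quantile (0.0855) and median-of-ratios scaling (0.0769) also took it past the threshold. Without HO 2, HO 4 and DHO 1, Zap70 (-0.63, adjusted p = 0.0343) and Lck (-0.86, adjusted p = 0.0343) passed and Cd8a did not (-1.02, adjusted p = 0.0611). With only DHO and WT in the fit, 186 genes were called, 91 higher and 95 lower, among them 6 of the 7. Replicates differed most in HO, with a chi-square per gene of up to 584, against 232 in DHO and 132 in WT. What part the HO spread had in the small count was not tested.

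DHO against HO asked what the Ripk1 change altered where epithelial TAK1 was lost, and the 2 comparisons share the DHO libraries. Cd8a fell to 2.67 ± 0.71 FPKM in DHO, against 5.31 ± 1.56 in HO (log2 change -0.77, SE 0.18, adjusted p = 0.00257). Cd3e (-0.55, SE 0.14, adjusted p = 0.00378), Cd3g (-0.54, SE 0.17, adjusted p = 0.0124) and Zap70 (-0.40, SE 0.14, adjusted p = 0.0251) also fell. Lck was at -0.47 (SE 0.21, adjusted p = 0.0683), Cd3d at -0.41 (SE 0.22, adjusted p = 0.125) and Itgae at -0.24 (SE 0.12, adjusted p = 0.114).

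In DHO against HO 4 of the 7 genes were called lower, beside 13.4% of all genes called lower, and 42.8% of all genes were called higher (56.1% in either direction). For Cd3e and Cd8a the DHO and HO libraries did not overlap, a lower separation found for 5.44% of genes. The median change of all genes was 0.246. With median-of-ratios scaling, which brings that median to -0.0112, all 7 genes were called lower, beside 2797 genes higher and 2934 lower in all, and with quantile normalization 6 were. HO 4 carried part of the values: without it Cd3d stood at -0.17 (adjusted p = 0.359) and Zap70 at -0.28 (adjusted p = 0.0655), while Cd3e (-0.40), Cd3g (-0.39) and Cd8a (-0.71) were still called. Zap70 was also lost without DHO 4 (adjusted p = 0.0605) or DHO 5 (0.0558), and Cd3g without HO 2, HO 4 and DHO 1 together (-0.35, adjusted p = 0.105).

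**Figure D2:**
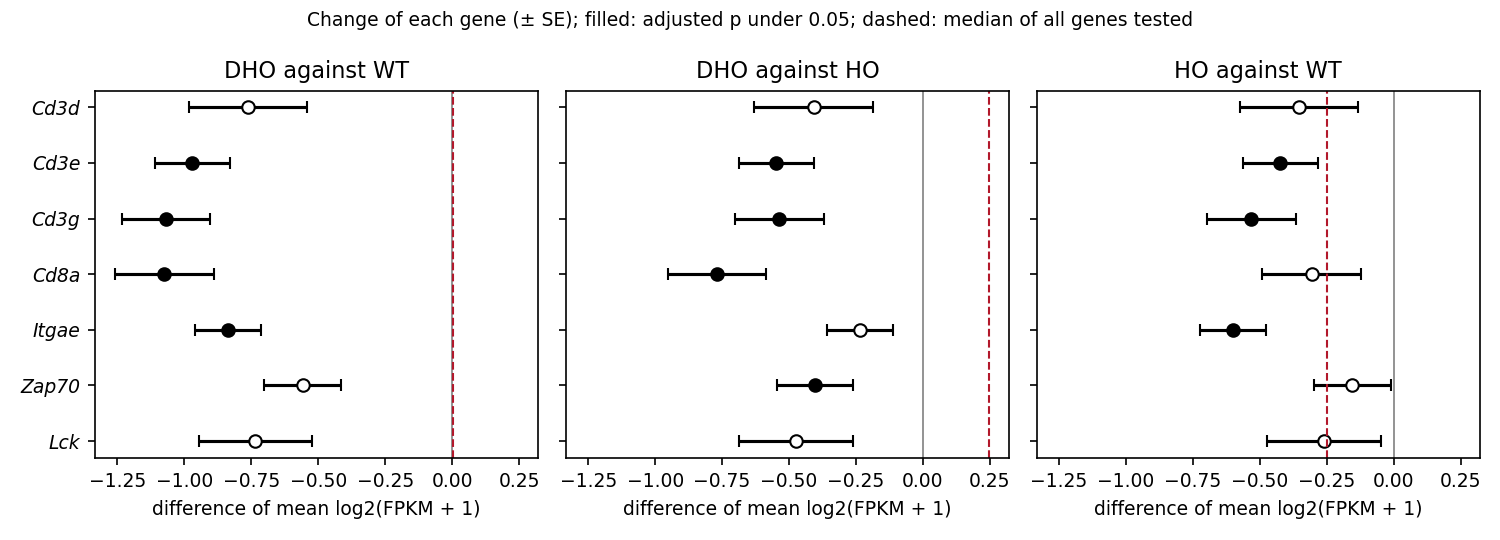
Change of each gene in DHO against WT, DHO against HO and HO against WT (x axis, difference of mean log2(FPKM + 1), bars ± SE); filled points have an adjusted p under 0.05 and the dashed line is the median of the 11332 genes tested. All 21 changes are below 0 (Zap70 and Lck in HO against WT turn under median-of-ratios scaling), and in DHO against HO they lie on the other side of 0 from the median of all genes, which is -0.0112 with that scaling.

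HO against WT asked what the loss of epithelial TAK1 changed with RIPK1 intact, and it shares its libraries with the comparisons above. Itgae fell to 2.35 ± 0.70 FPKM in HO, against 4.00 ± 0.31 in WT (log2 change -0.60, SE 0.12, adjusted p = 0.000948). Cd3g (-0.53, SE 0.17, adjusted p = 0.0137) and Cd3e (-0.42, SE 0.14, adjusted p = 0.0178) fell too. Cd3d (-0.35, adjusted p = 0.184), Cd8a (-0.31, adjusted p = 0.168), Lck (-0.26, adjusted p = 0.307) and Zap70 (-0.15, adjusted p = 0.369) did not pass.

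Those 3 calls of 7 stand beside 42.9% of all genes called lower (55.4% in either direction), and the 1 gene with separate groups beside 29.8%, so the count is near the background. The median change of all genes was -0.249, and relative to it the changes were -0.35 for Itgae, -0.28 for Cd3g and -0.17 for Cd3e. Under quantile and median-of-ratios scaling only Itgae was called among the 7 (-0.40 and -0.37), and Zap70 turned to 0.0099 and 0.026. Leaving out HO 4 raised the count to 5, with Cd3d at -0.59 (adjusted p = 0.00608) and Lck at -0.46 (adjusted p = 0.0341). For each of the 7 genes the group means were in the order DHO, HO, WT from low to high, but DHO and HO libraries overlapped in 5 genes and HO and WT libraries in 6.

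Ratios to Cd3e describe the proportions among the genes. The FPKM ratio of Cd8a to Cd3e had a median of 1.44 in DHO (1.22 to 1.91), 1.72 in HO (1.25 to 2.53) and 1.51 in WT (1.21 to 2.06). For Itgae to Cd3e the median was 1.07 in DHO (0.844 to 1.30), 0.733 in HO (0.648 to 1.09) and 0.955 in WT (0.777 to 1.10). For Lck to Cd3e it was 1.70 in DHO (0.854 to 2.36), 1.36 in HO (1.22 to 1.60) and 1.15 in WT (1.11 to 1.36). In 12 two-sided exact permutation tests of 4 such log2 ratios (Cd8a, Itgae, Zap70 and Lck to Cd3e) in the 3 comparisons, none passed after adjustment. The lowest p was 0.0159, for Zap70 to Cd3e in DHO against WT (a difference of 0.41 in log2 ratio, adjusted p = 0.159; 0.26 with a pseudocount of 0.1, exact p = 0.278). With 5 libraries against 5 the smallest p is 0.00794, and a single test at that p would be adjusted to 0.0952, so a difference in a single ratio could not pass here, and the tests do not show that proportions were alike. Over the 15 libraries Pearson's r between pairs of the 7 genes ran from 0.73 to 0.95 (21 pairs), and between deviations from the group means from 0.37 to 0.89, given as a description, since the libraries share genotypes and the HO 4 excess.

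The genes outside the 7 with the most similar levels across the 15 libraries were mostly lymphocyte genes. For Cd3e they were Itgb7 (r = 0.92, rho = 0.89), the partner chain of Itgae, and the cytotoxic granule membrane gene Nkg7 (r = 0.92, rho = 0.91). Cd3g was closest to the adhesion receptor gene Cd96 (r = 0.95) and Nkg7 (r = 0.93), and Cd8a to Nkg7 (r = 0.96) and the granzyme gene Gzma (r = 0.94). Itgae was closest to Itgb7 (r = 0.92) and Cd96 (r = 0.91). Cd3d was closest to the lymphocyte GTPase gene Gimap7 (r = 0.87) and Itgb7 (r = 0.86), and Lck to the T and NK cell antigen gene Cd7 (r = 0.85) and Gimap7 (r = 0.85). Zap70 differed, with the B-lineage elongation factor gene Eaf2 (r = 0.89) and the plasma cell chaperone gene Mzb1 (r = 0.85). Mzb1 averaged 4.94 ± 2.60 FPKM in DHO, 12.1 ± 6.83 in HO and 13.1 ± 2.45 in WT.

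Other receptor and co-receptor genes were too low for firm values. Of 14 listed, 7 were in the table and 2 passed the filter. Cd4 averaged 1.10 ± 0.54 FPKM in DHO, 1.93 ± 1.10 in HO and 1.93 ± 0.26 in WT, and Cd8b1, the CD8 beta chain gene, 0.61 ± 0.29 in DHO, 0.86 ± 0.45 in HO and 1.44 ± 0.67 in WT. Neither was called in a comparison by limma. Cd247, the zeta chain, ranged from 0.153 to 0.261 FPKM in DHO, 0.154 to 0.577 in HO and 0.317 to 0.46 in WT.

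Of 28 genes listed for T cell receptor signalling, regulators such as Csk and Ptprc among them, 17 were tested. Values of whole ileum do not show which cells they came from. In DHO against WT none was called by limma in the main fit or by limma-voom with median-of-ratios factors. In the main fit 2 were at an unadjusted p under 0.05 (15 below 0, median change -0.17). In DHO against HO 8 fell and none rose, including the adaptor gene Lcp2 (-0.97, SE 0.18, adjusted p = 0.000434) and the phosphatase gene Ptpn22 (-0.84, SE 0.20, adjusted p = 0.00206), against a background of 13.4% called lower. In HO against WT 3 rose (Prkcq, Ptpn22 and Cblb) and 1 fell (Csk), beside 12.4% of all genes called higher and 42.9% lower. Cblb was at 0.953 FPKM or less in WT and passed the filter only with its HO libraries, the group where it was high. Its rise therefore adds no support to that count. With median-of-ratios factors 12 fell in DHO against HO, beside 2934 of 11332 genes called lower. With those factors 6 rose and none fell in HO against WT, beside 2804 genes called higher and 2640 lower. Lat, the adaptor that ZAP70 phosphorylates, averaged 1.39 FPKM in DHO, 2.32 in HO and 3.22 in WT and was called in no comparison. Without HO 2, HO 4 and DHO 1 the DHO against HO counts were 3 lower and 1 higher, and the HO against WT counts 3 lower and none higher. Of all 11332 genes, 934 were then lower and 3749 higher in the first, and 4035 lower and 930 higher in the second. In DHO against WT 1 signalling gene was called lower without those libraries, beside 39 of all genes. Without HO 1, DHO 3 and DHO 4 as well, 1 was called lower, beside 12 of all genes.

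Some genes of intraepithelial lymphocytes fell in DHO against WT. Of 29 names listed, with 1 gene under 2 of them, 28 were in the table and 19 were tested. Of these 5 fell and none rose, 18 were below 0, and 13 had DHO libraries wholly below WT libraries, where 1.96% of all genes did. The median change was -0.60. Of the 13, Ccr9 reached 1 FPKM in the 5 WT libraries and in no other. Cd160, at 0.827 to 1.35 FPKM in DHO and 0.474 to 1.35 in HO, also passed the filter only with its WT libraries. Such genes were tested only because WT was high, so they add no support to the count. The 5 called here and the 4 called of the 7 genes make up 9 of the 18 genes called lower in DHO. Both sets of genes were chosen with earlier results of these data known, so this count is a description and no independent test. Gzmb, a granzyme gene, was at 6.03 to 12.3 FPKM in DHO, against 20.7 to 55.7 in WT (log2 change -1.84, SE 0.31, adjusted p = 0.0171). Gzma was at 37.9 to 88.1 FPKM in DHO, against 103 to 196 in WT (-1.51, SE 0.28, adjusted p = 0.0376). The chemokine gene Ccl5 (-1.33, adjusted p = 0.0273), Nkg7 (-1.15, adjusted p = 0.00523) and the receptor gene Cd160 (-0.68, adjusted p = 0.0422) were the others. With median-of-ratios scaling, and also without HO 2, HO 4 and DHO 1, 2 of the 19 were called, and limma-voom with median-of-ratios factors called 1. Itgb7, the integrin partner of Itgae, averaged 0.947 ± 0.134 FPKM in DHO, 1.61 ± 0.88 in HO and 2.28 ± 0.34 in WT and was called in no comparison.

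In DHO against HO 8 of the 19 fell, beside 13.4% of all genes called lower, among them Gzmb (10.1 ± 2.71 FPKM in DHO, against 45.7 ± 19.2 in HO, adjusted p = 9.09e-05), Gzma (-1.35, adjusted p = 0.000937) and the interleukin receptor gene Il2rb (-0.96, adjusted p = 0.000476). Hopx, which epithelial cells also express, rose (1.20, adjusted p = 6.23e-05). In HO against WT 6 of the 19 fell, a smaller share than the 42.9% of all genes called lower. Cd160 was at -0.77 (adjusted p = 0.000193), while Gzmb stood at 0.16 (adjusted p = 0.679) and Gzma at -0.16 (adjusted p = 0.635). The 6 include the gut homing receptor gene Ccr9, which reached 1 FPKM in the 5 WT libraries and in no other, so it entered the test only through the group where it was high. Without HO 2, HO 4 and DHO 1 the 8 became 4, beside 934 of 11332 genes called lower. With median-of-ratios factors the 8 became 14, beside 2934 genes called lower. With those factors 3 fell and 2 rose in HO against WT, beside 2640 genes called lower and 2804 higher.

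**Figure D3:**
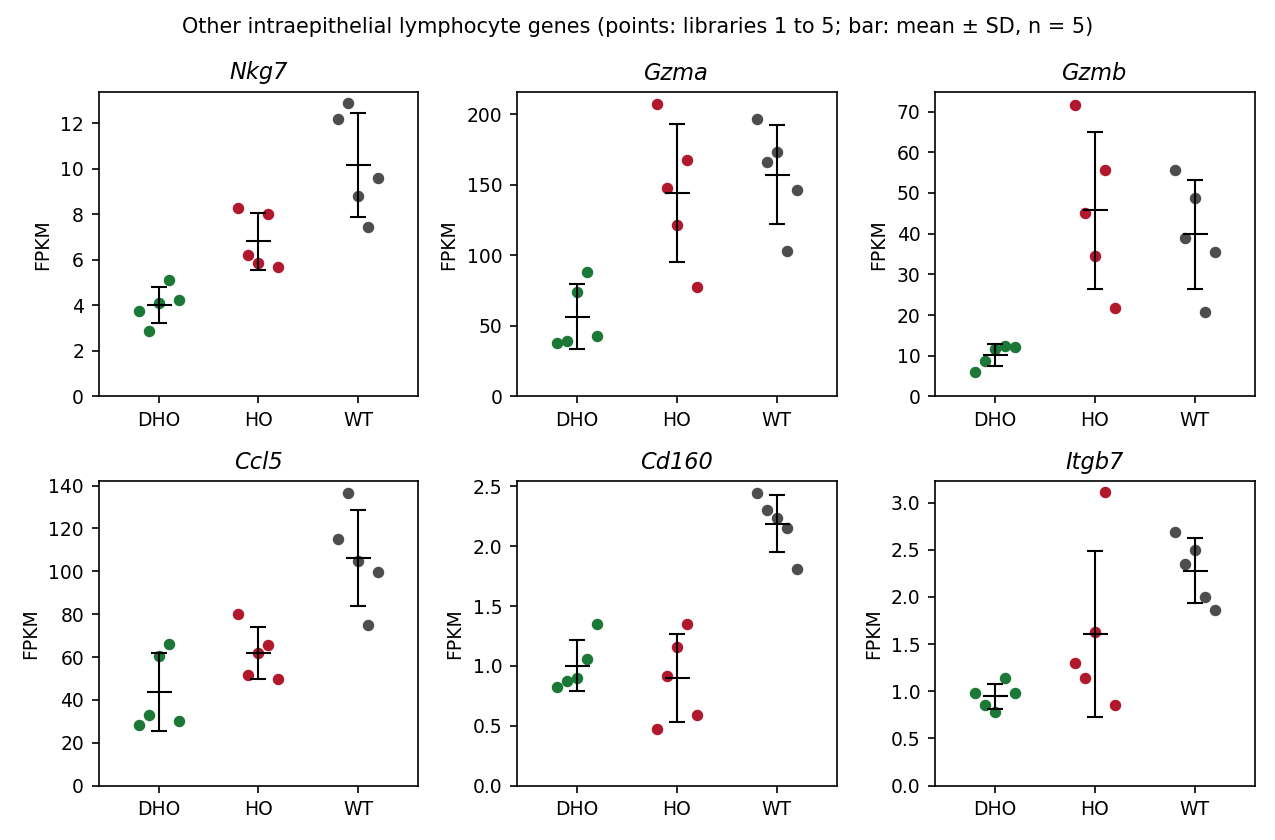
FPKM (y axis, linear from 0) of 6 further lymphocyte genes in DHO, HO and WT ileum, with 1 point per library and mean ± SD of 5 libraries. DHO libraries lie below all WT libraries in each panel; Gzma and Gzmb in HO overlap WT, and Cd160 is low in HO as in DHO.

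Epithelial ligands and cytokines that act on these cells gave no call in DHO against WT by limma or limma-voom, where 16 of 17 were tested, with 2 at an unadjusted p under 0.05 (median change 0.044). Groups were separate for some: DHO libraries lay wholly above WT libraries for 3 of the 16, Il15, Ccl25 and Btnl1. They lay wholly below for 1, Cd274, as for 1.96% of all genes tested. The share of all genes wholly above was not counted. In DHO against HO 5 rose and 5 fell, beside 42.8% of all genes called higher and 13.4% lower. With median-of-ratios factors 1 rose and 7 fell, beside 2797 of 11332 genes called higher and 2934 lower. Ccl25, the epithelial chemokine that CCR9 binds, rose to 151.8 ± 24.6 FPKM in DHO, against 58.7 ± 32.8 in HO (log2 change 1.51, SE 0.27, adjusted p = 0.000309), and Il15, a survival factor of these cells, by 0.57 (adjusted p = 0.00959). Cd274, the ligand PD-L1, fell (log2 change -2.40, SE 0.24, adjusted p = 3.08e-06). Cdh1, the E-cadherin bound by the product of Itgae, rose in HO against WT (0.28, adjusted p = 0.0227) and was not called in the other comparisons. Of 9 T cell attracting chemokines 7 were tested. In HO against WT 3 rose, Cxcl9, Cxcl10 and Cxcl16, and 1 fell, beside 12.4% of all genes called higher and 42.9% lower. In DHO against HO 1 rose and 3 fell, beside 42.8% of all genes called higher and 13.4% lower. Cxcl10, an interferon-induced chemokine, rose in HO against WT (3.28, adjusted p = 1.81e-05) and fell in DHO against HO (-3.94, adjusted p = 4.21e-06). Its range was 1.63 to 4.63 FPKM in DHO, 19.6 to 170 in HO and 4.53 to 6.26 in WT. Ccl28, an epithelial chemokine, fell in DHO against WT (-1.60, adjusted p = 0.00523). Ccl28 rose in DHO against HO (1.68, adjusted p = 2.51e-05) and fell in HO against WT (-3.28, adjusted p = 2.16e-07).

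Markers of other lymphocytes moved with some libraries. The summed level of 14 B cell genes was 4.83 to 80.1 FPKM in DHO, 6.05 to 173 in HO and 10.2 to 13.3 in WT, and the highest sums were in HO 4, DHO 1 and HO 2. Sums of 16 genes of naive and follicular T cells were 8.00 to 21.6 FPKM in DHO, 14.5 to 72.2 in HO and 10.3 to 14.6 in WT. All 4 of these that were tested, Klf2, Bcl6, S1pr1 and Ccr7, rose in HO against WT and fell in DHO against HO, by 0.65 (Bcl6) to 1.45 (S1pr1) on the log2 scale in the first. Of all genes, 12.4% were called higher in the first comparison and 13.4% lower in the second. Ccr7 reached 1 FPKM only in HO 1, HO 2, HO 3, HO 4 and DHO 1. It entered the test only through HO, the group where it was high, so it adds no support to these counts. A few genes weigh most in these sums: Klf2 alone gave 15.4 of the 33.7 FPKM in HO 1. Values of whole ileum do not show which cells such genes came from. Genes of this list under the filter differed. In HO 1, HO 3 and HO 5 Tcf7 was at 0.235, 0.351 and 0.261 FPKM, against 0.346 to 0.609 in WT. Ctla4 was at 1.93, 1.65 and 0.284 FPKM there, against 0.341 to 0.798 in WT. The part of these B and T cells in the values of the 7 genes was not tested. The sum of the 7 genes was 15.6 to 20.6 FPKM in DHO, 21.5 to 46.3 in HO and 32.7 to 45.05 in WT, and HO 4 alone among HO libraries reached the WT range. DHO 1, with B cell sums close to those of HO 2, stayed at 19.1 FPKM. Ncr1, a defining gene of NK cells, was at 0.252 FPKM or less in every library.

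**Figure D4:**
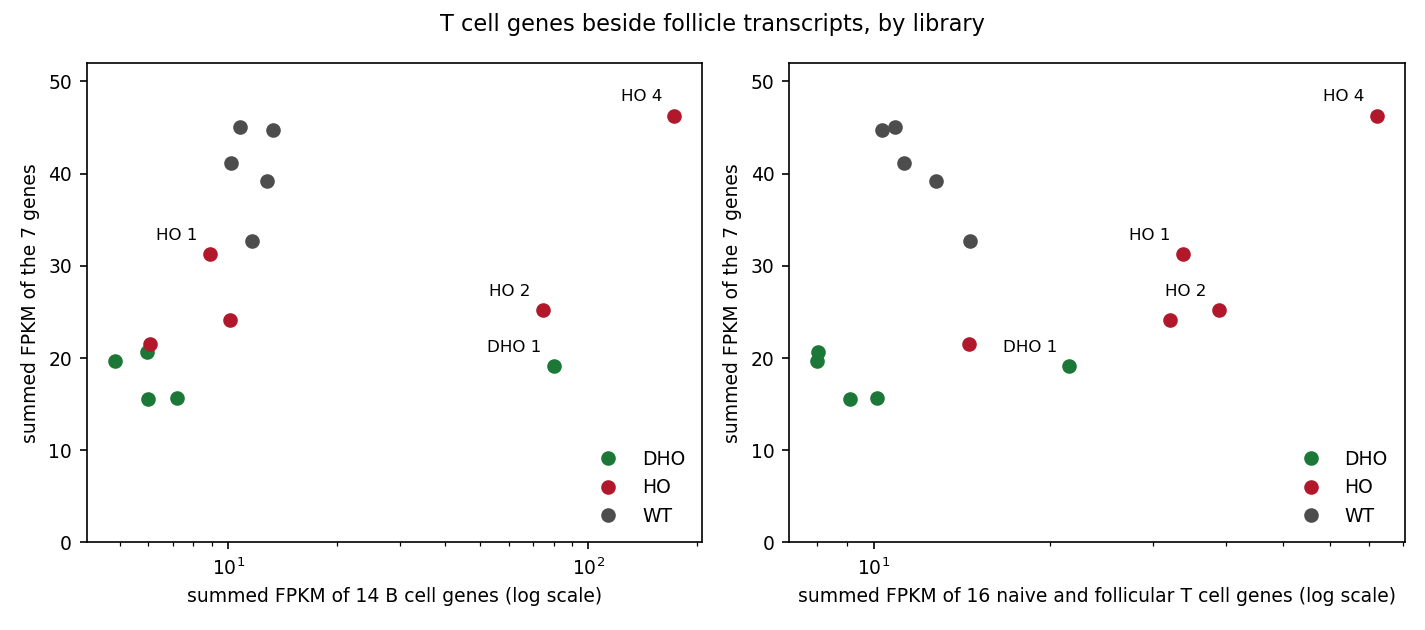
Summed FPKM of the 7 genes (y axis, linear from 0) against summed FPKM of 14 B cell genes (left) and of 16 naive and follicular T cell genes (right), both x axes on a log scale, with 1 point per library. WT libraries lie between 32.7 and 45.05 FPKM at low B cell sums, DHO libraries at 20.6 or less whether B cell sums are low or high, and HO 4 is highest on both axes.

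Markers of cells that share some of these genes also differed. CD8 alpha and integrin alpha E are made by some dendritic cells. Of 7 dendritic cell genes listed 2 were tested: Itgax (-0.89, adjusted p = 0.00248) and Batf3 (-0.89, adjusted p = 0.00473) fell in DHO against HO, Batf3 rose in HO against WT (0.69, adjusted p = 0.0209), and neither was called in DHO against WT. The sum of the 6 in the table was 2.38 to 4.17 FPKM in DHO, 3.52 to 14.3 in HO and 4.15 to 5.80 in WT. Of 9 macrophage genes, all tested, 6 fell in DHO against HO, including the complement gene C1qa (-1.26, adjusted p = 0.00464) and Cd68 (-1.10, adjusted p = 0.00217), 2 rose in HO against WT (Cd68 and Mrc1), and none was called in DHO against WT by limma or limma-voom, with 1 at an unadjusted p under 0.05. Of all genes tested, 13.4% were called lower in DHO against HO, 12.4% higher in HO against WT and 0.238% either way in DHO against WT. Without HO 2, HO 4 and DHO 1 the 6 macrophage genes became 1 and the 2 became none. In that setting 934 of 11332 genes were lower in DHO against HO and 930 higher in HO against WT. Macrophage sums were 101 to 279 FPKM in DHO, 144 to 710.2 in HO and 166 to 329 in WT. Smooth muscle sums ran from 398 to 1237 FPKM in DHO, 369.9 to 1666 in HO and 151 to 1082 in WT. WT 4 had the highest muscle sum and the lowest sum of the 7 genes among WT libraries. What part muscle, macrophages or dendritic cells had in the results was not tested.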

How the data were processed

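One deposited table held all libraries. Tools named in the submitters' processing notes are fastp, HISAT2 and HTSeq, with mm10 as the build; versions, settings and annotation are not given in the sources used here. The authors' values are FPKM, a unit read from the values: whole reads (within 0.02 of a read) were recovered for 24835 of 24836 genes with a value above 0. Depth limits the precision of low genes, and the labels name no molecular identifiers.

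The filter required 1 FPKM or more in 5 or more libraries, so a gene could pass through 1 group. Differences of mean log2(FPKM + 1) were tested two-sided in 1 fit of 15 libraries by robust limma-trend (R 4.3.3 with limma 3.58.1). A call needed p under 0.05 after Benjamini-Hochberg adjustment across the 11332 genes. Because 1 FPKM was added, changes of low genes are understated. The fit was tested on simulated data. Ratios used exact permutation tests.

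The members, lists and libraries to leave out were chosen with earlier results of these data known. Named genes are the 7, up to 4 genes per list with the smallest p and 2 called in none, and for each of the 7 the 2 most similar genes; other names were chosen after their values were seen. Alternatives were the pseudocount, filters, scalings, limma-voom on recovered reads, 2-group fits and leaving out libraries. Replicate numbers follow deposition order, the labels give no batch, and p-values measure the spread between these libraries only. Replicate libraries differed beyond sampling noise (chi-square per gene of 16.05 or more).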

Additional observations from a re-analysis of the deposited data

Results flagged for a closer look

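Of 21 sets of 5 libraries (7 genes in 3 genotypes), 4 held a library far from the others of its group, where chance gives about 1 in 20. Of these, 3 concern HO 4. Cd3d was at 5.83 FPKM in HO 4, against 1.40 to 2.65 in the other HO libraries. Cd3e was at 4.93 FPKM there, against 2.27 to 3.02, and Lck at 7.87 FPKM, against 2.98 to 4.36. HO 4 also had the highest sums of B cell genes (173 FPKM) and of naive and follicular T cell genes (72.2 FPKM), whose part in these values was not tested. The fourth was Cd3e in DHO 2, at 1.44 FPKM against 1.74 to 1.82 in the other DHO libraries, a small gap in a narrow group.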

How the results depend on the processing

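Each change of the 7 genes was recomputed under 26 alternatives. The 3 that leave out several libraries were chosen with earlier results known, and 1 of these (all 6 libraries) was added after seeing the files. The 11 called changes stayed below 0 in all 286 of their values. Of 546 values in all, 486 kept direction and side of the threshold, 30 lost a call and 26 gained one. Direction turned in 4, none of a called change, all in HO against WT: Zap70 was at 0.0099 with quantile normalization, 0.026 with median-of-ratios factors and 0.033 in limma-voom with such factors, and Lck at 0.00014 with median-of-ratios factors. In HO against WT the count of 3 called among the 7 became 1 with quantile normalization, median-of-ratios factors and limma-voom with such factors, 5 without HO 2, HO 4 and DHO 1, and 6 without these and HO 1, DHO 3 and DHO 4. In DHO against HO the count of 4 became 7 with median-of-ratios factors and 1 without those 6 libraries, where 4067 genes in all were called. In DHO against WT the count of 4 became 2 under limma-voom scaled that way, 6 with only those groups in the fit and 5 without HO 2, HO 4 and DHO 1. The 27 genes called there became 13 with median-of-ratios factors, 11 in limma-voom with them, 186 with only those groups in the fit, 47 without HO 2, HO 4 and DHO 1, 50 without HO 1, DHO 3 and DHO 4, and 15 without all 6. Leaving out 1 library at a time gave 11 (without WT 2) to 76 (without HO 1) genes, and 3 to 5 of the 7 in HO against WT, 3 to 6 in DHO against HO and 3 to 5 in DHO against WT. The ratio of Zap70 to Cd3e in DHO against HO, 0.14 in log2, was -0.0076 with a pseudocount of 0.1. Lck to Cd3e in DHO against HO ran from -0.042 to 0.22 with 1 library left out. Scaling also moved the split of all genes: HO against WT had 1406 higher and 4867 lower, against 2505 and 3154 with quantile normalization and 2804 and 2640 with median-of-ratios factors; DHO against HO had 4846 higher and 1513 lower, against 3308 and 2595, and 2797 and 2934. No ratio passed under any alternative. No paired analysis was possible because the labels give no replicate numbers shared between groups. With 57 to 126 reads of Zap70 per DHO library, counting error adds to its spread.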
